A study of Saccharomyces pastorianus with 12 samples.

Results

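Genes often put forward to scale transcript measurements in yeast, namely TUB1, TUB2, TAF10, ALG9, UBC6, TFC1, PDA1 and IPP1, were followed through a production-scale lager fermentation. They were chosen by name as the 8 rows annotated with these symbols, 1 probe each, of 6051 genes and unnamed probes on the array. The yeast was lager brewing yeast (Saccharomyces pastorianus, also called S. carlsbergensis), a hybrid with S. cerevisiae as a parent. Total RNA was measured at 0, 1, 24, 48, 72, 96, 120, 144, 168, 192, 240 and 264 h, with 1 array per time and so no replicate of any time. For tests the times were pooled into 4 windows: a start of 2 arrays (0 and 1 h), 3 arrays between 24 and 72 h, another 3 between 96 and 144 h, and a late window with the remaining 4 (168 to 264 h). All carry the same yeast and the same kind of fermentation in their labels, with no strain name or treatment. Whether all samples came from 1 tank was not given in the sources used here, so p-values measure only the spread between these samples. The probes carry S. cerevisiae gene names, and the hybrid's second set of gene copies could not be told from the first.

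A reference gene serves as a ruler. The signal of another gene is divided by that of the reference gene, so a useful one should hold a constant share of the RNA while the cells change state. In a fermentation the yeast goes through lag, growth, exhaustion of oxygen and sugars, and a resting state, and genes of growth and glycolysis change their share of the RNA. The 8 candidates come from unrelated processes. TUB1 and TUB2 encode the alpha and beta subunits of tubulin, TAF10 a subunit of the transcription complexes TFIID and SAGA, TFC1 a subunit of TFIIIC, which recruits RNA polymerase III, ALG9 a mannosyltransferase of protein glycosylation, UBC6 a ubiquitin-conjugating enzyme of the endoplasmic reticulum, PDA1 the alpha subunit of the first enzyme of pyruvate dehydrogenase, and IPP1 the cytoplasmic inorganic pyrophosphatase.

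Brightness differed widely between arrays. The median signal was 762 intensity units at 168 h and 10142 at 96 h, with the other arrays between, and the SD of log2 signals across genes lay between 0.67 (240 h) and 1.56 (1 h). At 240 h the array also had the lowest median Spearman correlation across genes with the other arrays, 0.252. Levels are therefore log2 signals minus the array's median (median centred), with values after quantile normalization where these differ. None of the 96 signals of the 8 genes lay below the 5th percentile of its array. The closest was IPP1 at 240 h, with 734 units against a 5th percentile of 727.

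TAF10 and UBC6 varied least over the fermentation and IPP1 most. The SD over the 12 arrays was 0.32 log2 units for TAF10 (standard error 0.08 by leaving out each array in turn), and 2.76% of 6048 genes had a smaller one. UBC6 had an SD of 0.38 (standard error 0.08), with 7.41% of all genes below it. Next came ALG9 at 0.52, PDA1 at 0.55, TUB2 and TUB1 at 0.63 each, and TFC1 at 0.67, with standard errors from 0.11 to 0.18. IPP1 had an SD of 0.96 (standard error 0.18), above 87.3% of all genes. The median SD of all genes was 0.63, so 4 of the 8 candidates lay below it. The median over the 8 was 0.59. Neighbours in this order differed by less than their standard errors from TAF10 to UBC6 and among the 5 genes from ALG9 to TFC1. With 1 array per time, array noise and real change could not be told apart in these SDs.

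**Figure D1:**
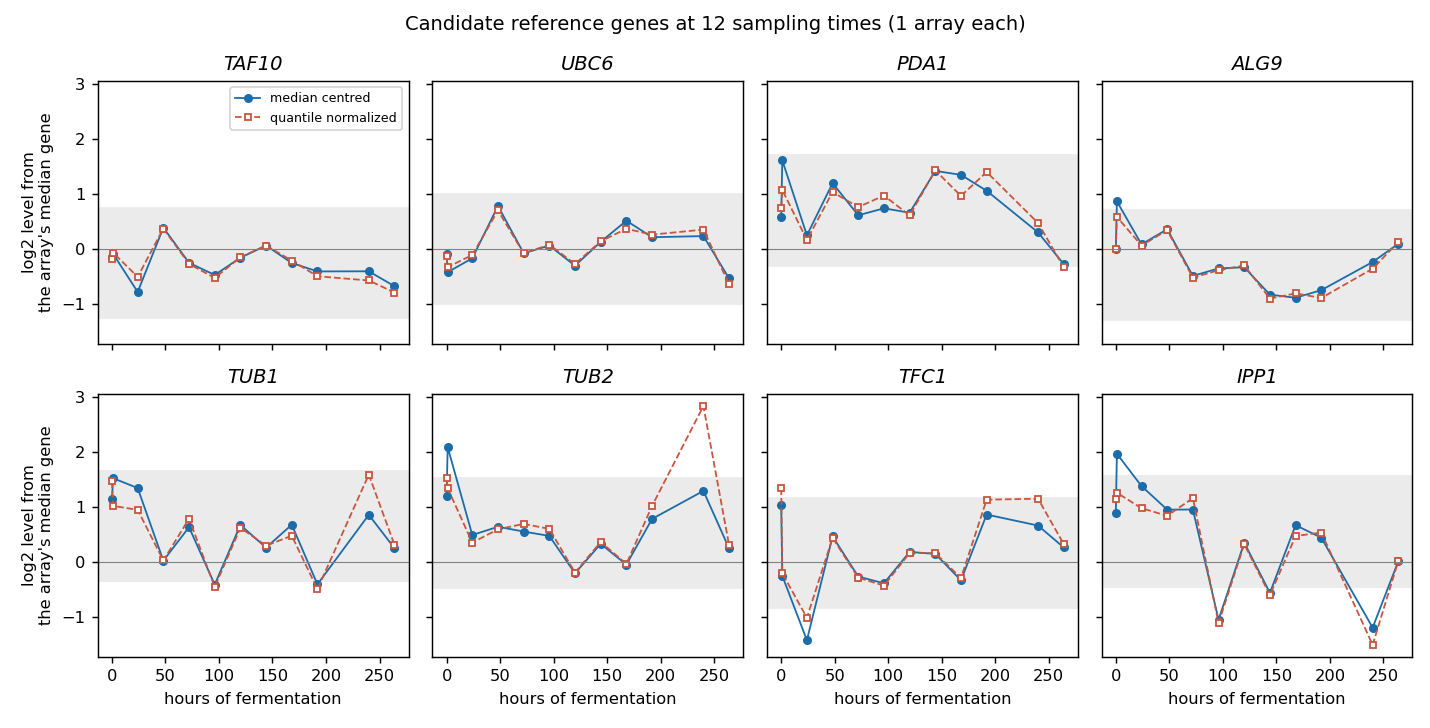
Median-centred (filled circles, solid) and quantile-normalized (open squares, dashed) log2 levels of the 8 genes against hours of fermentation, 1 array per time. The shaded band is 1 log2 unit either side of the gene's own median-centred median. TAF10 and UBC6 stay inside the band at all 12 times under both scalings, and IPP1 leaves it at 1, 96, 144 and 240 h in median-centred values.

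By SD, TAF10 and UBC6 had the 2 flattest courses under both scalings. TAF10 stood at -0.14, -0.08, -0.78, 0.39, -0.25, -0.47, -0.15, 0.07, -0.25, -0.40, -0.40 and -0.67 from 0 to 264 h. Its lowest level was at 24 h and its highest at 48 h, a span of 2.25-fold. UBC6 stood at -0.09, -0.42, -0.17, 0.78, -0.07, 0.07, -0.30, 0.13, 0.52, 0.22, 0.24 and -0.53 at the same times. It was also highest at 48 h, but lowest at 264 h, a span of 2.49-fold. After quantile normalization the SDs of TAF10 and UBC6 were 0.32 and 0.36. By the median absolute deviation PDA1 then came first, with 0.34 against 0.39 for TAF10 and 0.40 for UBC6. In median-centred values without the 48 h array, where both TAF10 and UBC6 peaked, their SDs were 0.25 and 0.31. Dim and bright probes differ in spread on an array, so each gene was also set beside the 500 genes nearest in mean level. Of these, 20 were steadier than TAF10 and 54 steadier than UBC6.

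IPP1, which splits the pyrophosphate released in synthesis of nucleic acids and proteins, had the widest course. It stood at 0.90, 1.97, 1.38, 0.95, 0.96, -1.04, 0.35, -0.56, 0.67, 0.44, -1.19 and 0.02 from 0 to 264 h, a span of 8.92-fold. All 5 arrays up to 72 h lay above all 7 later ones. The late arrays also differed among themselves, with lows at 96 and 240 h and 0.67 at 168 h. Of the 500 genes nearest in mean level, 463 were steadier. In deposited units the IPP1 signal was 4923 at 96 h and 4678 at 120 h, while the array median was 10142 at 96 h and 3666 at 120 h.

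The tubulin genes were high at the start. Alpha and beta tubulin form a dimer and are made in matched amounts. TUB1 stood at 1.15, 1.53, 1.35, 0.03, 0.64, -0.41, 0.68, 0.26, 0.68, -0.40, 0.86 and 0.25. Its 3 highest levels were those at 0, 1 and 24 h. TUB2 stood at 1.20, 2.09, 0.49, 0.64, 0.56, 0.48, -0.20, 0.33, -0.04, 0.79, 1.29 and 0.25. Both genes were highest at 1 h, and the spans were 3.82-fold for TUB1 and 4.89-fold for TUB2. Much of the spread of TUB2 lay in the 1 h array: its SD was 0.46 without it. The 240 h array mattered more after quantile normalization, which placed TUB2 at 2.84 there, against 1.29 median centred, and TUB1 at 1.59, against 0.86. The SD of TUB2 was then 0.82, above 78.8% of all genes, whereas its median-centred SD was that of the median gene.

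ALG9 followed a shallow trough. It stood at -0.0017, 0.87, 0.09, 0.36, -0.49, -0.35, -0.33, -0.83, -0.88, -0.74, -0.23 and 0.10, so that the arrays from 144 to 192 h were the 3 lowest and 1 h the highest. Its span was 3.36-fold, and its SD 0.41 without the 1 h array. PDA1, the pyruvate dehydrogenase gene, stood at 0.58, 1.61, 0.25, 1.20, 0.62, 0.74, 0.66, 1.42, 1.35, 1.06, 0.31 and -0.27. It was highest at 1 h and lowest at 264 h, with a span of 3.69-fold. The arrays from 144 to 192 h lay between 1.06 and 1.42. After quantile normalization they were at 1.43, 0.97 and 1.40. TFC1 stood at 1.04, -0.25, -1.42, 0.47, -0.26, -0.38, 0.19, 0.15, -0.33, 0.87, 0.67 and 0.27, with its high at 0 h and its low at 24 h, a span of 5.50-fold. Without the 24 h array its SD was 0.50.

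A user of a reference gene may ask for a fixed band. TAF10, UBC6 and PDA1 stayed within 1 log2 unit of their own median at all 12 times, 3 of 8 genes, beside 26.5% of all genes. After quantile normalization TAF10, UBC6 and ALG9 did so, again 3 of 8, beside 28% of all genes. TAF10 and UBC6 were also the 2 candidates among the steadiest 25% of all genes, with ALG9 as the third after quantile normalization. The shares of the 8 are near those of all genes, of which 25% are by definition among the steadiest. The 1 h array set much of this: without it, TUB2 and ALG9 joined both counts, which were then 5 in the band and 4 among the steadiest 25%. Without both arrays at 0 and 1 h, chosen after seeing the data, 6 of the 8 stayed in the band, all but TFC1 and IPP1.

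**Figure D2:**
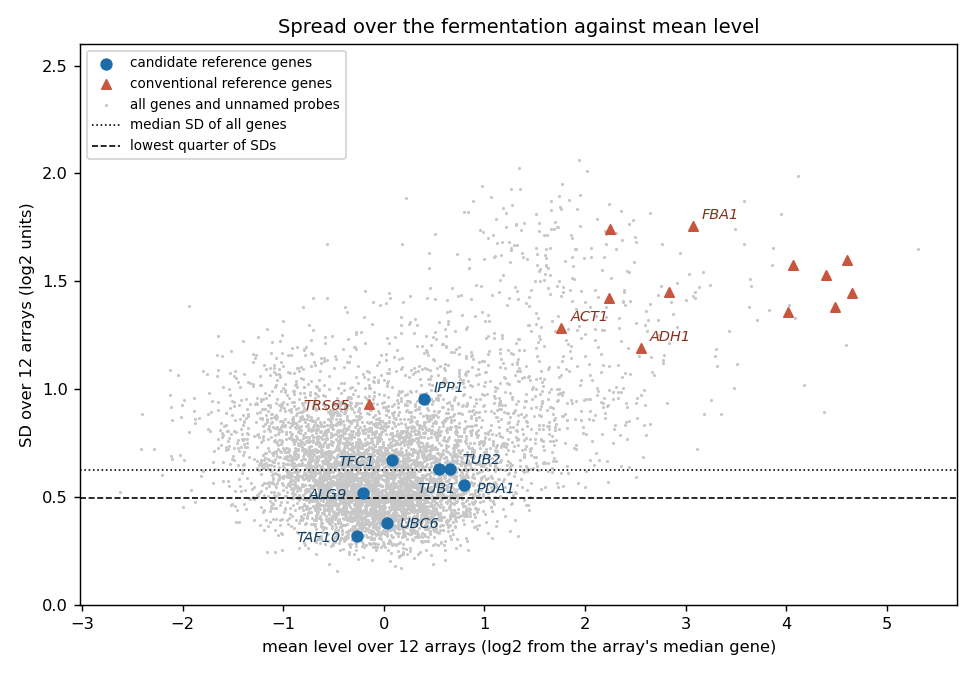
SD over 12 arrays (log2 units, vertical) against mean level (log2 from the array's median gene, horizontal) for 6048 genes and unnamed probes, median centred. TAF10 (0.32) and UBC6 (0.38) lie below the dashed line that marks the lowest 25% of SDs, while 12 of 13 conventional reference genes (triangles) lie above IPP1 (0.96).

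Ratios between candidates do not depend on a single scaling factor per array such as the median, so the 28 pairs were compared by the SD of their log2 ratio over the 12 arrays. TAF10 and UBC6 held the steadiest ratio of the 28, with an SD of 0.35. The log2 ratio of TAF10 to UBC6 was -0.04, 0.33, -0.61, -0.39, -0.17, -0.53, 0.14, -0.07, -0.77, -0.62, -0.64 and -0.14 from 0 to 264 h, a span of 2.15-fold. TAF10 and PDA1 came next (0.41), then TUB2 and ALG9 (0.51, but 0.89 after quantile normalization) and UBC6 and PDA1 (0.52). In median-centred values the ratio of TFC1 to IPP1 was the least steady, with an SD of 1.31 and a span of 25.1-fold, between -2.80 at 24 h and 1.85 at 240 h. After quantile normalization it was that of TUB2 to IPP1, with an SD of 1.40 and a span of 31.2-fold. TUB1 and TUB2, the partners of the tubulin dimer, had an SD of 0.67, a little above that of either gene alone. The median over the 28 pairs was 0.78.

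The mean of a gene's pairwise SDs is the stability value M of the geNorm method, in which the least steady gene is removed step by step. With all 8 genes M was 0.61 for TAF10, 0.70 for ALG9, 0.72 for UBC6, 0.73 for PDA1, 0.74 for TUB2, 0.79 for TUB1, 0.89 for TFC1 and 0.99 for IPP1. IPP1 was removed first, then TFC1, TUB1, TUB2, ALG9 and PDA1, which left TAF10 and UBC6. After quantile normalization, which does change ratios, IPP1 was again first, followed by TUB2, TFC1, TUB1, ALG9 and PDA1, with the same last pair. The mean M of the genes left was 0.77 for 8 genes and 0.35 for the last pair.

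**Figure D3:**
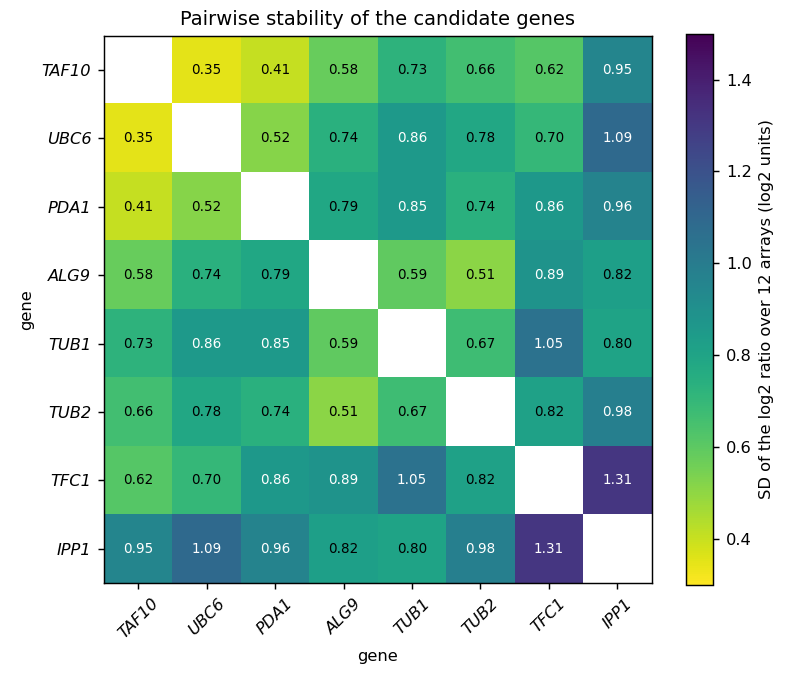
SD over 12 arrays of the log2 ratio between each pair of the 8 genes (colour and printed value, log2 units, median centred). The lightest cells join TAF10 with UBC6 (0.35) and with PDA1 (0.41), and the darkest joins TFC1 and IPP1 (1.31).

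In median-centred values averaging the candidates gave little over TAF10 alone (0.32). TAF10 was picked for its low SD on these same arrays, which favours the single gene. The smaller sets were the last genes left in the geNorm removal on these arrays, so the comparison is a description. The mean of all 8 genes had an SD of 0.30 and spanned 2.12-fold, with its lowest value, -0.17, at 96 h and its highest, 0.91, at 1 h. The mean of TAF10 and UBC6 also had an SD of 0.30, and that of TAF10, UBC6 and PDA1 an SD of 0.35. After quantile normalization these SDs were 0.29 and 0.33. The mean of all 8 then had an SD of 0.28 and spanned 1.86-fold, with its highest value, 0.74, at 0 h. TAF10 alone had 0.32 and 2.24-fold. In median-centred values the 8 genes lay farthest apart at 1 h, with an SD between genes of 1.03. It was 0.96 at 24 h and 0.37 at 48 h and 264 h. The 1 h array also had the widest spread over all genes (SD 1.56). After quantile normalization the 8 lay wider at 240 h, from -1.50 (IPP1) to 2.84 (TUB2). At 1 h they then ran from -0.33 (UBC6) to 1.34 (TUB2).

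Between 1 h and 0 h TAF10 differed least in median-centred values. It was 1.04-fold higher at 1 h, TUB1 1.30-fold higher and UBC6 1.25-fold lower. TUB2 and ALG9 were 1.85- and 1.83-fold higher. The direction of TUB1 and TUB2 depended on the scaling, since quantile normalization put them 1.36- and 1.13-fold lower at 1 h. TFC1 was 2.45-fold lower at 1 h, at -0.25 against 1.04 at 0 h. PDA1 was 2.05-fold higher, at 1.61 against 0.58, and IPP1 2.10-fold higher, at 1.97 against 0.90. Thus 3 of the 8 differed over 2-fold, beside 41% of all genes. After quantile normalization TFC1 alone did, 2.91-fold lower, beside 35.2% of all genes, and PDA1 and IPP1 were 1.25- and 1.08-fold higher. The log2 difference of IPP1 (0.112) was then slightly smaller than that of TAF10 (0.116). With 1 array each there was no replicate check of these differences.

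None of the 8 genes passed a test of change between windows. At 168 to 264 h against 24 to 72 h, limma called 0 of the 8, beside 0.0826% of 6051 genes, after Benjamini-Hochberg adjustment over all of them, with a threshold of 0.05. At an unadjusted p under 0.05, 1 of the 8 was counted, beside 14.9% of all genes. That gene was IPP1, at -0.01 ± 0.83 in the late window (SD, n = 4) and 1.10 ± 0.25 at 24 to 72 h (SD, n = 3), a log2 change of -1.11 (SE 0.50, limma adjusted p = 0.310). Every late array lay below every array at 24 to 72 h, as for 7.35% of all genes. Without the 240 h array the change of IPP1 was -0.72.

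The other 7 candidates had overlapping arrays in this comparison. UBC6 changed by -0.07 (95% interval -0.92 to 0.77) and TAF10 by -0.22 (-1.03 to 0.58). PDA1 and TUB2 had estimates of -0.08 (-1.07 to 0.91) and 0.01 (-0.87 to 0.89). After quantile normalization the estimate of TUB2 was 0.48. The estimates were -0.32 for TUB1, -0.43 for ALG9 and 0.77 for TFC1 (0.26 without the 24 h array), with limma adjusted p from 0.493 to 0.997 over these 7 genes. Over the 8 genes the median size of the change was 0.27, against 0.47 over all genes, but 0.41 against 0.44 after quantile normalization. The intervals are wide: for UBC6 and TAF10 they reach down to -0.92 and -1.03, so a late level lower by about 2-fold lies at their edge. After quantile normalization the count of candidates called was 0 too, beside 1.19% of all genes.

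**Figure D4:**
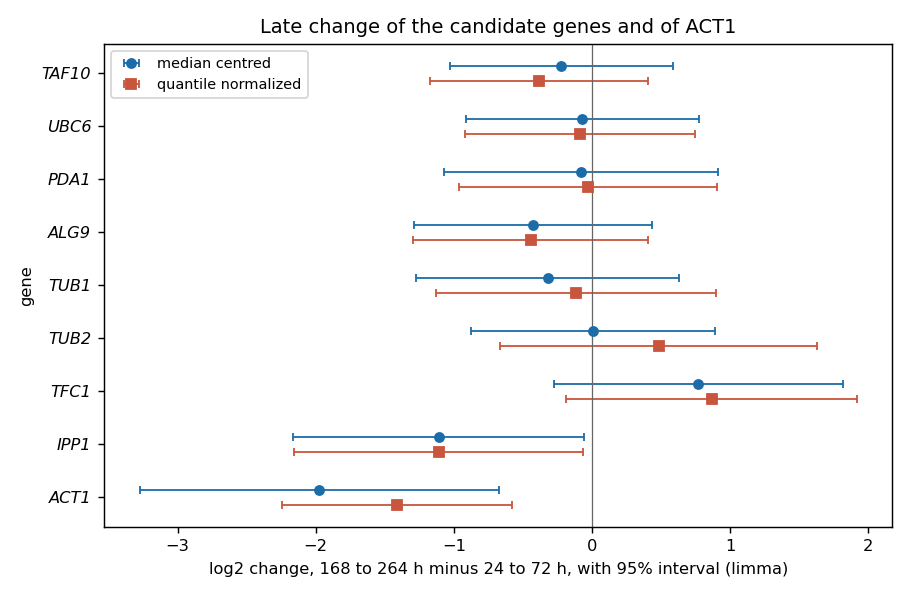
Log2 change at 168 to 264 h (4 arrays) against 24 to 72 h (3 arrays), with 95% intervals from limma, for the 8 genes and ACT1 under both scalings. The intervals of 7 genes include 0 under both scalings, while those of IPP1 (-1.11) and ACT1 (-1.97, median centred) do not, although neither passed after adjustment over all genes.

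The other windows gave no call either. At 96 to 144 h against 24 to 72 h, 0 of 8 passed, beside 0% of all genes in limma (7.04% at an unadjusted p under 0.05, and IPP1 among the 8). IPP1 was at -0.42 ± 0.71 at 96 to 144 h (SD, n = 3) and 1.10 ± 0.25 at 24 to 72 h (SD, n = 3), with all later arrays lower, as for 9.95% of all genes (log2 change -1.51, SE 0.53, limma adjusted p = 0.687). All arrays at 96 to 144 h were also below those at 24 to 72 h for TUB2, so 2 of 8 in all, with a change of -0.36. After quantile normalization the TUB2 arrays of these windows overlapped. At 24 to 72 h against 0 and 1 h, 0 of 8 passed, beside 0% of all genes (2.83% at an unadjusted p under 0.05). TUB2 was at 0.56 ± 0.07 at 24 to 72 h (SD, n = 3) and 1.64 ± 0.63 at 0 and 1 h (SD, n = 2), with all later arrays lower, as for 7.11% of all genes. Its log2 change of -1.08 (SE 0.50, limma adjusted p = 1.00) was -0.63 without the 1 h array. At 168 to 264 h against 96 to 144 h, 0 of 8 passed, beside 0% of all genes (1.57% at an unadjusted p under 0.05, with none of the 8).

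The late window lay lower than the start for several candidates. At 168 to 264 h against 0 and 1 h, 7 of the 8 estimates were below 0, with a median of -0.68, against -0.0052 over all genes (6 of 8 and -0.40, against 0.01, after quantile normalization), but 0 of 8 passed, beside 0% of all genes (7.95% at an unadjusted p under 0.05, with IPP1 and TUB2 of the 8). All late arrays lay below both early ones for TUB1, TAF10 and IPP1, 3 of 8, beside 3.97% of all genes. After quantile normalization this held for TAF10 and IPP1, 2 of 8, beside 5.01%. The log2 changes were -0.99 for TUB1, -1.07 for TUB2, -0.32 for TAF10 and -1.45 for IPP1, with limma adjusted p from 0.602 to 0.893. After quantile normalization that of TUB2 was -0.40, with an unadjusted limma p of 0.526. With levels centred on the other 7 candidates, TAF10 changed by 0.32 and UBC6 by 1.11, or 2.16-fold. The limma interval of UBC6 was then 0.14 to 2.08 (adjusted p = 0.291), and all its late arrays lay above both early ones. TFC1 and PDA1 also had estimates above 0 under this centring, and TUB1, TUB2, ALG9 and IPP1 below. In median-centred values the log2 change of UBC6 was 0.37. Without the 1 h array that of TUB2 was -0.63 and that of IPP1 -0.91 in median-centred values.

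Tests over the whole course also gave no call. A moderated F test for any difference among the 4 windows called 0 of 8, beside 0% of all genes (8.05% at an unadjusted p under 0.05, with IPP1 of the 8). A spline in hours called 0 of 8, beside 0.0331% of all genes (16.1% at an unadjusted p under 0.05, with IPP1 and ALG9 of the 8). After quantile normalization the spline called 0 of 8, beside 1.12% of all genes. The smallest limma adjusted p among the 8 in the spline were 0.269 for IPP1 and 0.289 for ALG9, and the largest were 0.886 for TAF10 and 0.875 for UBC6. A p above the threshold does not show that a gene was constant.

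The candidates were next set beside genes of their own pathways. In the list of 15 TFIID and SAGA subunits, which includes the TATA-binding protein gene SPT15, SDs ran from 0.31 for TAF2 to 1.07 for TAF5, with a median of 0.61 (all genes 0.63), and TAF10 was the second lowest. After quantile normalization TAF10 was lowest (0.32) and TAF1 highest (0.99). The steadiest ratio of TAF10 to another subunit was to TAF2, with an SD of 0.31. TAF1 and TAF5, both scaffold subunits of TFIID, spanned 10.9- and 14.3-fold. Of the 6 TFIIIC subunits, TFC6 had the lowest SD (0.45) and TFC7 the highest (1.11), and TFC1 was the third lowest in median-centred values. None of these genes was called in limma in any window comparison.

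UBC6 was also near the low end of its list. In 14 measured ubiquitin-conjugating enzymes and partners, SDs ran from 0.33 for UBC1 to 0.78 for UBC11, with a median of 0.58. After quantile normalization UBC1 was again lowest (0.36) and RAD6 highest (0.93). SSM4, the ubiquitin ligase that works with UBC6 at the endoplasmic reticulum and is also called DOA10, had an SD of 0.39, and its ratio to UBC6 an SD of 0.40. After quantile normalization these SDs were 0.65 and 0.57. UBC7 and its membrane anchor CUE1 had SDs of 0.49 and 0.48. Among 13 measured genes of the lipid-linked oligosaccharide pathway, where ALG9 acts, SDs ran from 0.38 for ALG11 to 1.33 for ALG1, with a median of 0.64, and ALG9 was the third lowest. After quantile normalization ALG8 was lowest (0.43) and ALG13 highest (1.11), with ALG1 at 0.77.

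PDA1 kept pace with its partner subunit. PDB1, the beta subunit of the same enzyme, had an SD of 0.48, and the ratio of PDA1 to PDB1 an SD of 0.36, lower than the SD of either gene alone. Of the 9 pyruvate dehydrogenase genes, LAT1, the acetyltransferase of the complex, had the lowest SD (0.28, with 1.22% of all genes below it) and PDX1, which anchors the LPD1 subunit, the highest (1.18). After quantile normalization PKP1 was lowest (0.34), LAT1 had 0.36, with 5.42% of all genes below it, and PDX1 was again highest (0.93). IPP1 had the highest SD of the 4 pyrophosphate and polyphosphate genes. The mitochondrial pyrophosphatase gene PPA2 (0.68), the exopolyphosphatase gene PPX1 (0.59) and the polyphosphate polymerase gene VTC4 (0.66) were lower, and the ratio of IPP1 to PPA2 spanned 26.9-fold. Limma called 0 of the genes of these lists in any window comparison.

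TUB3, a second alpha-tubulin gene whose probe can share signal with TUB1, had an SD of 0.56, and TUB4, the gamma tubulin of the spindle pole, 0.60. The ratios of TUB1 and TUB2 to TUB3 had SDs of 0.66 and 0.89, and of 0.98 and 1.23 after quantile normalization. The 6 tubulin folding cofactor genes had a median SD of 0.52, with CIN1 lowest (0.36) and CIN2 highest (0.92). In the tubulin list 0 of 4 genes were higher at 24 to 72 h than at 0 and 1 h, with a median change of -0.47 against -0.08 over all genes, and 0 passed.

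**Figure D5:**
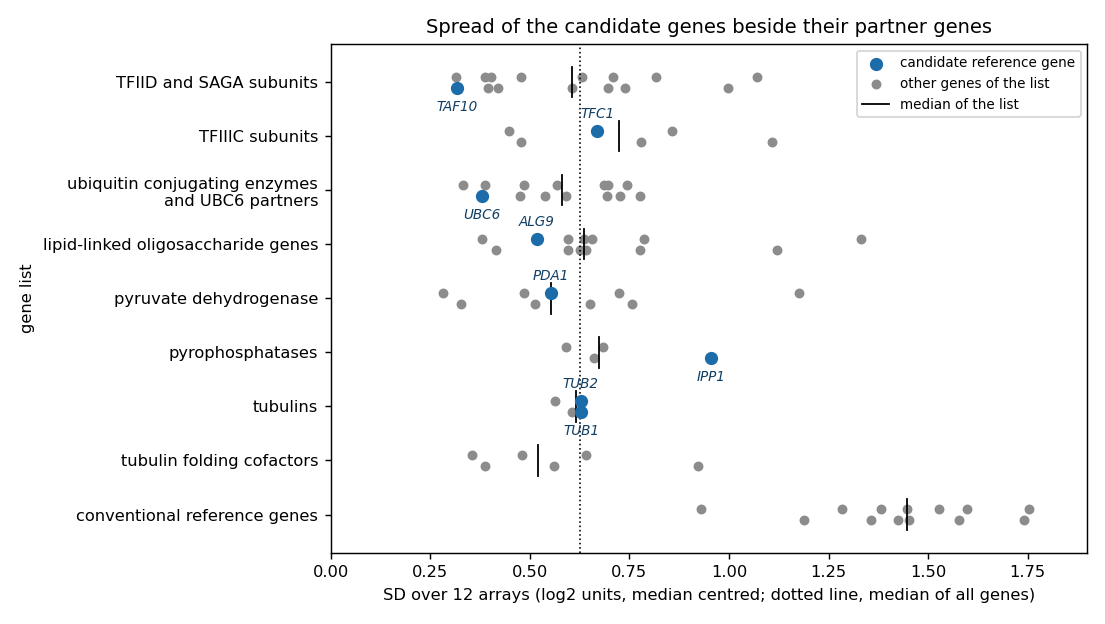
SD over 12 arrays (log2 units, median centred) of each measured gene of the partner lists and of the conventional reference genes, with the 8 candidates in blue and the list median as a black bar. TAF10 (0.32), UBC6 (0.38) and ALG9 (0.52) lie left of their list medians and IPP1 (0.96) is the rightmost of its list. The conventional reference genes have a median of 1.45.

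Genes in wide use as references varied more than the candidates in median-centred values. The 8 candidates had SDs from 0.32 to 0.96, and 12 of 13 conventional reference genes exceeded the highest of these, the exception being TRS65, also called KRE11, at 0.93. Actin (ACT1) had an SD of 1.28 and spanned 16.3-fold, the translation elongation factor gene TEF1 83.3-fold, the aldolase gene FBA1 51.7-fold, and the dehydrogenase gene TDH3 32.5-fold. The signals of TEF1 and TEF2, and of TDH1, TDH2 and TDH3, come from near-identical genes and can be shared. All the conventional genes but TRS65 were also brighter, with mean levels from 1.77 (ACT1) to 4.65 (TDH1). Those of the candidates ran from -0.26 (TAF10) to 0.79 (PDA1). The brightest 25% of all genes had a median SD of 0.77, against 0.63 over all genes. The conventional genes were not set beside genes of like level. The size of the contrast in SD also depended on scaling. After quantile normalization 4 of the 13 exceeded every candidate, the median SD of the 13 was 0.72, and ENO2, an enolase gene, had an SD of 0.36, the same as UBC6.

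At 168 to 264 h the 13 conventional genes stood below 24 to 72 h with a median log2 change of -2.57 (-1.37 after quantile normalization), and all 13 were lower in median-centred values, against a median of -0.15 and 6 of 8 lower for the candidates. Limma called 0 of the 13 in median-centred values and 4 after quantile normalization, namely TDH1, PGK1, CDC19 and FBA1, with adjusted p from 0.0352 to 0.0475. ACT1 changed by -1.97 from median-centred values, and by -1.79 with the mean of the 8 candidates as the reference (limma adjusted p = 0.177 and 0.180). With the candidates in place of the array median, the median of all genes was 0.34 higher at 24 to 72 h than at 0 and 1 h, 0.22 higher at 168 to 264 h than at 24 to 72 h, and 0.60 higher at 168 to 264 h than at 0 and 1 h. In that last comparison 80.5% of all genes then had an estimate above 0, against 49.8% under median centring.

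For each candidate the 3 genes with the most similar course were sought among 4535 brighter genes, by Pearson's r over the 12 arrays of median-centred levels. The values describe the top of a long ranking and carry no test. For IPP1 they were EGD1 (0.95), HPF1 (0.94) and KGD1 (0.94), for TFC1 RTG3 (0.93), ESC2 (0.89) and RIM11 (0.88), and for PDA1 ATP2, the beta subunit of ATP synthase (0.91), DSK2 (0.91) and MRPL16, a mitochondrial ribosomal protein gene (0.91). For TUB1 they were RAD9 (0.91), NDC1 (0.89) and UTP7 (0.86), and for TUB2 DPS1 (0.86), NDE1 (0.86) and HAS1 (0.86). For ALG9 they were LOT5, ADE16 and OPI10, with r from 0.85 to 0.86, and for UBC6 DOS2, IML3 and PHB1, with r from 0.80 to 0.84. For TAF10 the named gene was GGA1 (0.86), beside 2 unnamed probes. After quantile normalization r for the same pairs ran from 0.59 (ALG9 with ADE16) to 0.95 (TFC1 with RTG3), so some likenesses depended on the scaling.

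Several genes outside the candidates were steadier still. Of 3024 genes in the brighter 50%, ranked by the larger of the SDs under both scalings, 133 were steadier than UBC6. TAF10 itself lies in the dimmer 50%, and 47 of the 3024 had a smaller value than its 0.32. The steadiest were BOR1, a boron exporter gene (0.17), an unnamed probe (0.21), ARP1, a dynactin component gene (0.22), YOL153C (0.23), SDP1 (0.24), FUS3, a mating kinase gene (0.25), AME1, a kinetochore gene (0.25), HNM1, a choline transporter gene (0.26), MRPL31 (0.26) and SNF1, the kinase of glucose derepression (0.26). These genes were picked for their small SD on these 12 arrays, so the values are a description. HNM1 was the brightest of them relative to the array median, with a mean level of 0.84.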

How the data were processed

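The deposited values are linear probe intensities, whole numbers for 6084 probes on 12 arrays. What the authors did to make them (scanner, background correction, scaling) is not given in the sources used here. Probes were named by the platform annotation: 5523 carried a single symbol, 561 were unnamed and 0 were ambiguous. The 3 intensities of 0, all at 168 h, were treated as missing. Values were log2 transformed, the 32 symbols with several probes were averaged, and genes needed values on at least 9 arrays. Each array was centred on its median gene, or quantile normalized.

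Window comparisons and the spline (3 degrees of freedom) came from limma 3.58.1 in R 4.3.3 fitted to the 12 arrays together (degrees of freedom: residual 8, prior 7.96). Tests were two-sided and Benjamini-Hochberg adjusted over 6051 rows. SDs used the 6048 rows with 12 values. The fits were tested on simulated data. The members, lists and tests were chosen with earlier results of these data known. Named genes were the members, the partner lists, the 3 most similar genes per member and the 10 steadiest. Alternatives covered scaling, normexp background correction (offset 50), dim genes, variance model, time scale and each array left out. The number of arrays limits the precision. Figures used matplotlib 3.10.9.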

Additional observations from a re-analysis of the deposited data

Results flagged for a closer look

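A single value stood apart from its window. After quantile normalization UBC6 was at -0.64 at 264 h, while the other 3 arrays of the 168 to 264 h window lay between 0.26 and 0.37, so that the gap took 0.895 of the range; Dixon's 95% limit for 4 arrays was passed. It was 1 of 16 sets of 4 arrays examined, and chance gives about 1 in 20.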

How the results depend on the processing

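TAF10 had the lowest SD of the 8 genes in 21 of 22 settings, UBC6 stood beside it in the lowest pair in 20 and IPP1 had the highest in all 22. The exceptions were the intensities without centring, where TFC1 was lowest, and centring on the candidates themselves, where ALG9 was second. The 22 settings are not independent checks. They include the main values and each array left out in turn. The median absolute deviation stood in for the SD in median-centred values only. The floor at the 5th percentile and the removal of the dimmest 25% of genes could not change an SD of the 8 genes. The count among the steadiest 25% (2) was 5 with levels centred on the candidates, which is circular, and 4 without 0 and 1 h, and it ran from 2 to 4 with single arrays left out (4 without 1 h). The count within the band (3) was 0 without centring, 1 after normexp, 6 without 0 and 1 h, and from 2 to 5 with single arrays left out (5 without 1 h). The mean M (0.77) was 1.06 after normexp, and from 0.73 to 0.80 with arrays left out. The count past 2-fold at 1 h against 0 h (3) was 6 without centring, where TFC1 differed by 0.0041, and 1 with quantile normalization, centring on the candidates, equal spread or normexp.

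In limma the candidates called stayed at 0, except without centring, with 4 at 168 to 264 h against 24 to 72 h and 7 in the spline. Genes called at 168 to 264 h against 24 to 72 h (5) were 72 with quantile normalization, 2125 without centring, 1 with centring on the candidates, 62 with equal spread, 0 with normexp or trend and robust variances, 8 with a floor, and from 0 to 257 with arrays left out (257 without 0 h). In the spline (2) they were 68, 5091, 53 with equal spread, 4 with normexp, 5 with a floor, 0 with trend, 272 in log2 hours, and from 0 to 1113 (1113 without 0 h). The window F test (0) gave 357 without centring and up to 368 with an array left out (0 h). At 24 to 72 h against 0 and 1 h (0) centring on the candidates gave 1. With arrays left out, the count reached 6 at 168 to 264 h against 96 to 144 h (without 168 h) and 510 against 0 and 1 h (without 0 h). The cause was not tested.

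At 168 to 264 h against 24 to 72 h, TUB2 and TFC1 differed by -2.10 and -1.33 without centring, and UBC6 and PDA1 by 0.13 and 0.12 with centring on the candidates. With arrays left out the ranges were -0.64 to 0.016 for TUB1, -0.23 to 0.21 for TUB2, -0.50 to 0.080 for TAF10, -0.25 to 0.23 for UBC6 and -0.32 to 0.22 for PDA1. At 168 to 264 h against 0 and 1 h TAF10 was at 0.32 and UBC6 at 1.11 with centring on the candidates. Where an array left out leaves 1 at 0 and 1 h, it is assumed to vary like the other windows. No paired analysis was possible because the labels give 1 array per time and no replicate numbers.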
